A study of Mus musculus with 188 samples.

Results

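The protease-activated receptor genes F2r, F2rl1 and F2rl2 were followed through bulk mRNA libraries of cultured mouse brain slices. They are 3 of the 25655 genes listed in batch 1 and of the 25528 genes listed in batches 2 and 3. They were chosen from measured values, because F2rl2 and F2rl1 had the lowest fitted log2 differences between slices given 200 µM HbHp and control slices at 48 h among genes called with a mean of at least 1 CPM, and F2r was lowered with them. That fit had a batch term and no term for the library-name rounds described below. That comparison is therefore given here as a description with no test. All slices were coronal sections from wildtype C57BL/6J mice of both sexes, 6 to 8 weeks old, and were exposed from day 7 of culture.

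In batch 1 the slices received for 24 h either no agent (control), heme bound to albumin at 12.5, 50, 200 or 400 µM, or heme bound to hemopexin (hemeHpx) at 200 µM, with 10 libraries in each of these 6 groups. Haptoglobin stands in the hemeHpx titles, but the treatment tag, the library name and the study's methods give hemopexin, and these were followed. In batches 2 and 3 the slices received for 24 h or 48 h no agent, human hemoglobin (Hb) at 200 or 400 µM, human haptoglobin alone (Hp) at 400 µM, or the complex of both (HbHp) at 200 or 400 µM. The first part of the library name divides batches 2 and 3 into rounds E1 and E2, whose meaning the labels do not give, and every HbHp library carries E2. The rounds are therefore shown apart. There were 53 assigned libraries in E1 and 54 in E2. A further 21 of the 188 libraries carry conflicting labels and entered no comparison. The labels do not say which libraries came from separate animals, so the p-values measure the spread between libraries, which may in part be technical.

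Protease-activated receptors are G protein-coupled receptors that carry their own ligand. A protease cuts the extracellular end, and the newly exposed end folds back and switches the receptor on. F2r encodes PAR1, the main thrombin receptor of many cell types, F2rl1 encodes PAR2, which is cut by trypsin-like proteases and not by thrombin itself, and F2rl2 encodes PAR3, which in mouse helps thrombin to act on PAR4 and hardly signals alone. F2rl3 encodes PAR4. In the brain, thrombin enters the tissue when blood leaks, and PAR1 is known on neurons and astrocytes.

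The 3 genes lie together on chromosome 13 in the GENCODE annotation of GRCm38, all protein-coding. F2rl1 (ENSMUSG00000021678) spans chr13:95511732-95525227 on the minus strand, F2r (ENSMUSG00000048376) chr13:95601803-95618487 on the minus strand, and F2rl2 (ENSMUSG00000021675) chr13:95696853-95702739 on the plus strand. F2rl2 lies within the span of Iqgap2 (chr13:95627177-95891922, minus strand), a scaffold protein gene. The counts were made on GRCm39, so these positions describe the neighbourhood only. Whether the counting used strand is not given in the sources used here, and without strand, reads of F2rl2 and of Iqgap2 that share its exons cannot be told apart. RefSeq promoter sequences (GRCm38.p6) were matched for 2 of the 3 genes, F2r and F2rl2, and the 250 bases before the RefSeq start were searched on both strands. Both hold the AP-1 letters TGANTCA, once in F2r and at 2 places in F2rl2, while 6.75% of 32851 promoters of the same length hold them. The 29-base windows around these matches are shown because these letters occur in both genes, with the match in capitals (5′ to 3′ on the gene's own strand). Distances are counted from the RefSeq start, and the second F2rl2 window lies inside the GENCODE span of F2rl2, which begins earlier.
F2r, 204 bases before the start, chr13:95618653-95618681, minus strand: ccccgaggggcTGAGTCActcccaggctt
F2rl2, 233 bases before the start, chr13:95696676-95696704, plus strand: ggcagtggaatTGATTCAaagctaattgc
F2rl2, 54 bases before the start, chr13:95696855-95696883, plus strand: gaggctcagccTGAGTCAtgcacacagac
The F2r match also overlaps a match to the antioxidant response element letters TGACNNNGC, which 10.2% of promoters hold. F2r has in addition a GC box (GGGCGG), held by 32.7% of promoters, and F2rl2 has none. Neither window holds the TATA box letters TATAAA or the TEAD letters GGAATG. The former is held by 12.4% of promoters and the latter by 12.6%. A match of letters is a description and not a binding site.

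Sequencing depth was 11038484 to 44199060 counts a library in batch 1, 32626873 to 54174784 in batch 2 and 15587938 to 38839614 in batch 3. Levels are given as CPM, counts scaled to the library size after TMM normalization, with batch 1 scaled apart from batches 2 and 3, so levels of batch 1 are not compared with those of the other batches. Markers of neurons, astrocytes, oligodendrocytes and microglia were all detected in the Hp 400 libraries of 24 h, where summed neuronal markers (Rbfox3, Snap25, Syt1, Slc17a7, Gad1) ran from 31.9 to 94.1 CPM and summed oligodendrocyte markers from 22200 to 34000 CPM. In bulk tissue, fewer cells of a type and less RNA per cell cannot be told apart.

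F2r was the most abundant receptor gene in every group, and the receptors kept one order of level except in round E2. Per kilobase of exon, the group means of F2r ran from 21.97 to 30.27 CPM in batch 1, from 17.2 to 33.3 CPM in E1 and from 7.57 to 11.7 CPM in E2. F2rl1 followed with group means of 1.31 to 1.95, 1.03 to 3.69 and 0.107 to 0.443 CPM per kilobase, and F2rl2 with 0.529 to 0.94, 0.252 to 1.18 and 0.0427 to 0.218. F2rl1 lay above F2rl2 in all 6 groups of batch 1, in all 8 groups of E1 and in 10 of 12 groups of E2, the exceptions being control and Hb 200 at 48 h. F2rl3 ran from 0.0927 to 0.352 CPM per kilobase over all groups, which was below F2rl2 in every group of batch 1 and E1 and above it in 11 of 12 groups of E2.

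**Figure D1:**
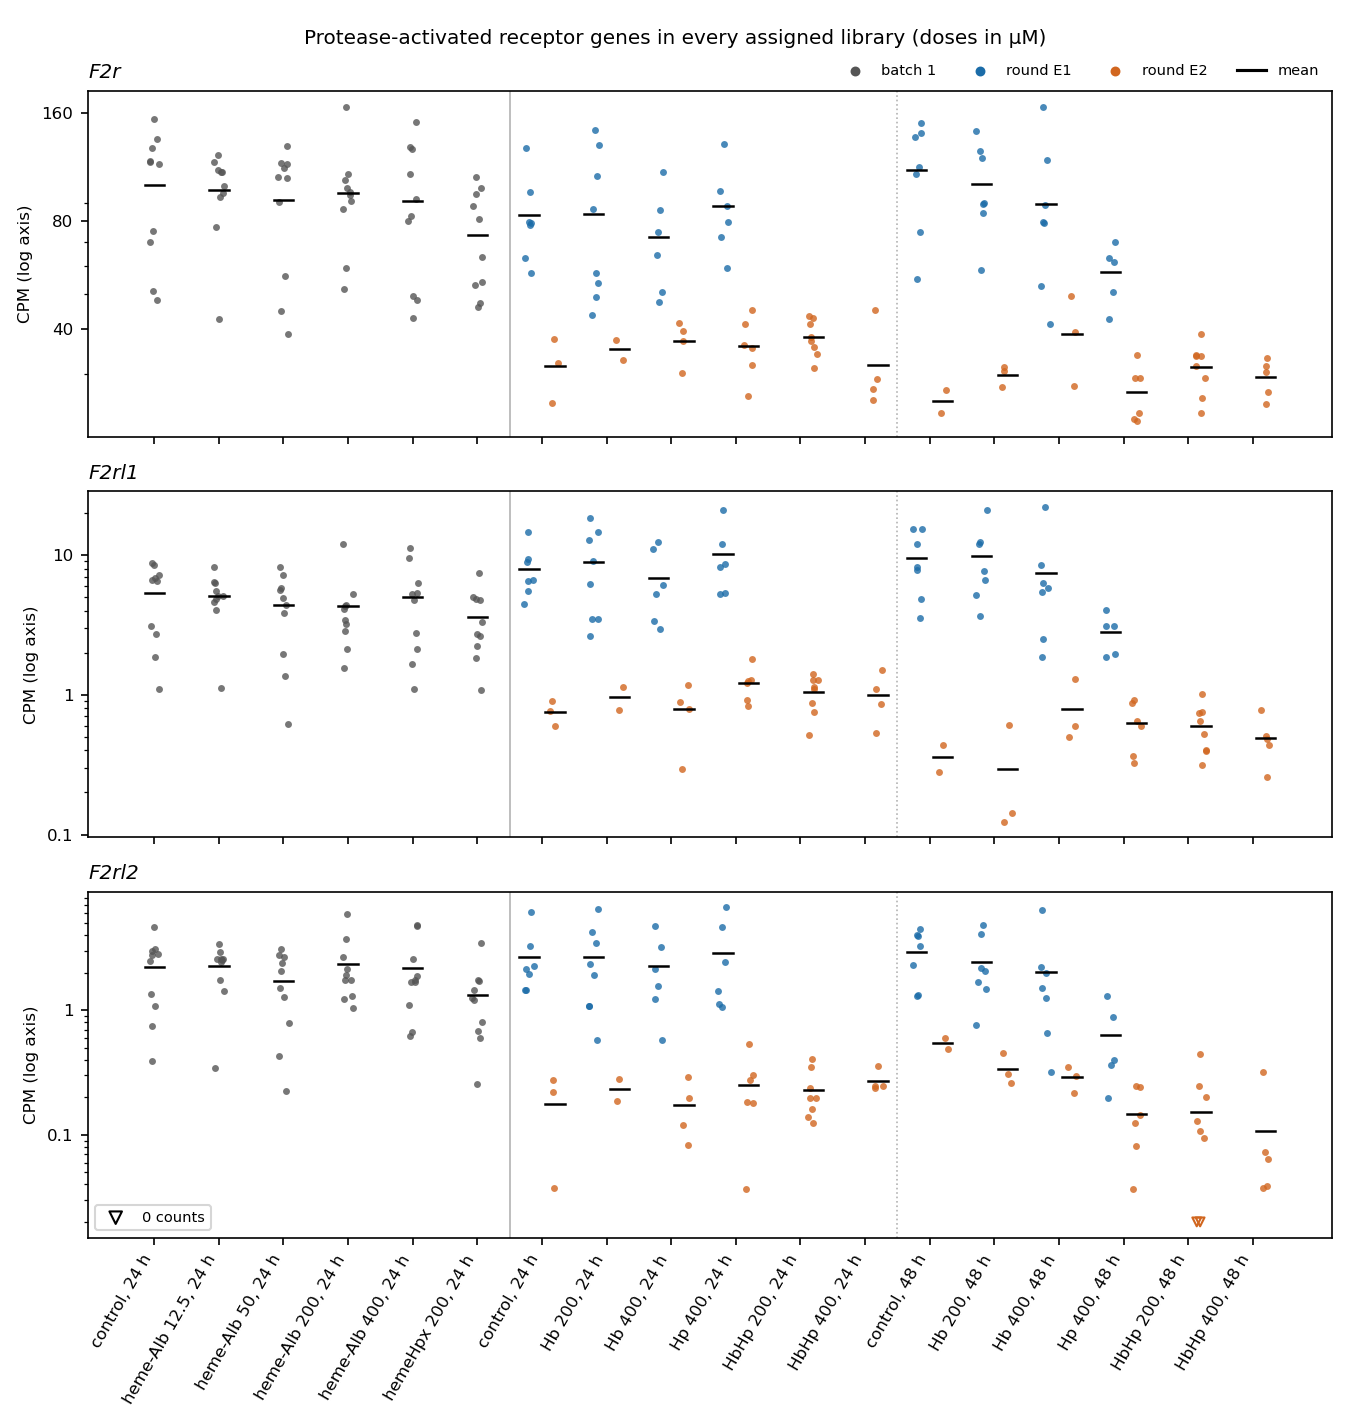
Level of F2r, F2rl1 and F2rl2 in each of the 167 assigned libraries, as CPM on a log axis, by treatment, dose in µM and time. Points are libraries coloured by batch 1, round E1 or round E2, bars are means, and open triangles are the 2 libraries with 0 counts of F2rl2. The E2 points lie below the E1 points of the same group in each panel, with the exceptions named in the text.

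In batch 1, none of the heme treatments moved F2r, F2rl1 or F2rl2 past the test. F2rl3 was called higher with hemeHpx than in control (1.17 ± 0.35 on the log2 scale, adjusted p = 0.0401 in edgeR). That call rested on few reads, 0 to 12 counts a library in controls and 8 to 26 with hemeHpx. With heme-albumin F2rl3 was 0.36 to 0.72 above control, with no dose called. Between hemeHpx and heme-albumin 200 µM it differed by 0.45 ± 0.32 (adjusted p = 0.29 in edgeR). F2r in control slices had a lowest value of 48.3, a median of 116 and a highest of 154 CPM, and with heme-albumin 400 µM 43.1, 87.4 and 151 CPM. With hemeHpx 200 µM the lowest, median and highest F2r values were 46.03, 72.3 and 106 CPM. The groups overlapped, and over all of batch 1 F2r ran from 38.9 to 166 CPM.

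F2rl1 had a mean of 5.33 ± 2.84 CPM (SD, n = 10) in controls, 5.00 ± 3.34 CPM with heme-albumin 400 µM and 3.59 ± 1.91 CPM with hemeHpx. F2rl2 had a mean of 2.25 ± 1.32 CPM in controls, 2.17 ± 1.53 CPM with heme-albumin 400 µM and 1.32 ± 0.907 CPM with hemeHpx. All groups overlapped for all members. Over 6 comparisons, 0 of 18 member tests passed an adjusted p of 0.05 in edgeR, 0 passed in DESeq2, and 2 had an unadjusted p under 0.05. The shares of all genes called in the same comparisons were 0.045%, 0.463%, 13.6% and 29% for heme-albumin 12.5, 50, 200 and 400 µM, 8.2% for hemeHpx against control, and 25.9% for hemeHpx against heme-albumin 200 µM.

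The hemeHpx group had the lowest mean of the 6 groups for F2r, F2rl1 and F2rl2. For F2rl3 it had the highest mean (0.635 CPM, with 0.258 CPM in controls). Against control its log2 difference was -0.46 ± 0.23 for F2r (SE, 95% interval -0.91 to -0.01, adjusted p = 0.156 in edgeR), -0.57 ± 0.38 for F2rl1 (-1.32 to 0.18, adjusted p = 0.299) and -0.75 ± 0.41 for F2rl2 (-1.54 to 0.05, adjusted p = 0.194). Against heme-albumin at the same dose F2rl2 differed by -0.81 ± 0.40 (-1.59 to -0.02, adjusted p = 0.12 in edgeR). These intervals leave room for falls of up to 1.59 on the log2 scale, so the data of batch 1 do not show that the receptors stayed level with hemeHpx. For heme-albumin 400 µM against control the intervals were -0.60 to 0.30 for F2r, -0.85 to 0.64 for F2rl1 and -0.86 to 0.71 for F2rl2.

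The question for Hb, Hp and HbHp was whether they moved the receptors relative to control slices of the same round. At 24 h in E1, F2rl1 ran from 4.48 over a median of 6.58 to 14.6 CPM in 7 controls, from 2.62 over 7.67 to 18.5 CPM in 8 libraries with Hb 200 µM, from 2.97 over 5.71 to 12.4 CPM in 6 with Hb 400 µM and from 5.22 over 8.42 to 21.2 CPM in 6 with Hp 400 µM. At 24 h in E2, the 3 controls had 0.900, 0.767 and 0.598 CPM of F2rl1, and the 4 libraries with HbHp 400 µM had 0.867, 1.10, 0.530 and 1.51 CPM. The treated libraries overlapped the controls of their round in both.

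F2rl2 at 24 h in E2 rested on few reads. The 3 controls had 10, 14 and 1 counts (0.219, 0.275 and 0.0374 CPM), and the 4 libraries with HbHp 400 µM had 6, 9, 7 and 7 counts (0.236, 0.354, 0.247 and 0.247 CPM). F2r in the same libraries had 37.6, 32.2 and 24.9 CPM in controls and 29.1, 27.4, 25.4 and 45.3 CPM with HbHp 400 µM, so its groups overlapped too.

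Across the 8 comparisons with control at 24 h, 0 of 24 member tests passed in edgeR and 0 in DESeq2, and 0 had an unadjusted p under 0.05. The log2 differences lay between -0.32 and 0.48, with adjusted p from 0.906 to 1. The shares of all genes called were 0.154%, 0.231% and 1.63% for Hb 200, Hb 400 and Hp 400 µM in E1, and 0%, 0.124%, 0%, 0.349% and 1.37% for Hb 200, Hb 400, Hp 400, HbHp 200 and HbHp 400 µM in E2. The largest standard errors stood in E2, where the F2rl2 difference for Hb 200 µM was 0.33 ± 0.97, so changes of several-fold in this gene were not detectable at this depth and group size. The difference of these effects between E2 and E1 passed for none of the members in 9 tests (edgeR and DESeq2, 0 with an unadjusted p under 0.05), where 0%, 0% and 0.124% of all genes were called for Hb 200, Hb 400 and Hp 400 µM.

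HbHp 400 µM could be set against Hp 400 µM without the shared controls, within E2 and batch 3. At 48 h, F2rl1 had 0.779, 0.435, 0.257, 0.508 and 0.484 CPM in the 5 HbHp libraries, and from 0.325 over a median of 0.626 to 0.920 CPM in the 6 Hp libraries. F2r had 30.5, 33.3, 26.8, 24.8 and 31.7 CPM with HbHp and from 22.2 over 26.3 to 33.9 CPM with Hp. The groups overlapped for both genes.

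F2rl2 had 7, 2, 2, 1 and 1 counts in the 5 HbHp libraries and from 1 to 7 counts with Hp. The log2 differences at 48 h were 0.14 ± 0.25 for F2r (adjusted p = 0.867 in edgeR), -0.36 ± 0.57 for F2rl1 (adjusted p = 0.838) and -0.55 ± 0.87 for F2rl2 (adjusted p = 0.842). Over both times 0 of 6 member tests passed in edgeR and 0 in DESeq2, with 0 unadjusted p under 0.05, where 1.12% of all genes were called at 24 h and 3.01% at 48 h. The 95% intervals at 48 h ran from -0.35 to 0.62 for F2r, from -1.47 to 0.75 for F2rl1 and from -2.26 to 1.16 for F2rl2.

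The largest tested differences of the receptor genes lay between the rounds. With Hp 400 µM at 24 h, where both rounds are in batch 3, F2r ran from 59.1 over a median of 83.8 to 131 CPM in 6 E1 libraries and from 26.1 over 35.9 to 45.1 CPM in 6 E2 libraries. F2rl1 ran from 5.22 over 8.42 to 21.2 CPM in E1 and from 0.829 over 1.24 to 1.79 CPM in E2. F2rl2 ran from 1.06 over 1.94 to 6.72 CPM in E1 and from 0.0366 over 0.230 to 0.539 CPM in E2. For all members every E1 library of this group lay above every E2 library.

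The fitted log2 difference of E2 minus E1 in this group was -1.28 ± 0.23 for F2r (adjusted p = 1.04e-05 in edgeR), -3.04 ± 0.45 for F2rl1 (adjusted p = 1.29e-07) and -3.51 ± 0.58 for F2rl2 (adjusted p = 2.15e-06). As folds these were 2.43, 8.20 and 11.4. In this comparison 18.3% of all 16896 genes tested were called lower in E2, and the median log2 difference of all genes was 0.01.

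The same direction was found in each of the 7 groups other than the 48 h controls. Of these, control and Hb 200 µM at 24 h and Hb 200 µM at 48 h were in the fit that chose the members, although not in its contrast, so 9 of the 21 tests are not independent of that fit. The other 12 tests, of Hb 400 and Hp 400 µM at both times, used groups outside it. They compare the same rounds, and the contrast that chose the members set E2 libraries against controls mostly of E1. These 12 tests are therefore not independent of that choice either. The members were lower in E2 in 21 of 21 tests with edgeR and in 21 with DESeq2, beside 11.8%, 3.54%, 4.92% and 18.3% of all genes called lower for control, Hb 200, Hb 400 and Hp 400 µM at 24 h and 16.5%, 3.6% and 11% for Hb 200, Hb 400 and Hp 400 µM at 48 h. F2r differences ran from -1.78 with Hb 200 µM at 48 h to -0.96 with Hb 400 µM at 24 h. F2rl1 differences ran from -4.93 with Hb 200 µM at 48 h to -2.17 with Hp 400 µM at 48 h. F2rl2 differences ran from -3.80 in 24 h controls to -2.05 with Hp 400 µM at 48 h.

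Some of these calls rest on few libraries. With batch 3 alone the 6 tests with Hp 400 µM passed. The other 12 tests there set 1 library against 1, each assumed to vary like the other groups, and say nothing about stability. Of these 7 passed, and all members with Hb 400 µM at 48 h, F2rl2 with Hb 200 µM at 48 h and F2rl2 in 24 h controls did not (adjusted p from 0.0667 to 0.602 in edgeR). Hb 200 µM at 24 h had 2 E2 libraries, and leaving out either replicate 7 or replicate 8 left none of the members past the threshold (adjusted p from 0.113 to 0.498). With Hb 400 µM, F2r lost its call at 24 h without E2 replicate 6 (adjusted p = 0.059) and at 48 h without E2 replicate 8 (adjusted p = 0.0727), and F2rl2 lost its call at 48 h without E2 replicate 8 or 10 (adjusted p = 0.0642 and 0.0664). For F2rl2 with Hp 400 µM at 48 h the adjusted p of 0.0184 became 0.0951 without E1 replicate 1 and 0.0539 without E1 replicate 5.

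Over all assigned libraries, the rounds did not overlap in F2rl1. These ranges are a description that in part restates the choice of members, since they include the 48 h control and HbHp 200 µM libraries. Its 53 E1 libraries ran from 1.85 to 22.1 CPM and its 54 E2 libraries from 0.124 to 1.79 CPM, with an 8.54-fold ratio of the medians. The E1 libraries with conflicting labels were left out here, and their F2rl1 values overlapped the E2 range. They ran from 0 over a median of 0.425 to 1.99 CPM where tagged 48 h and from 0.841 to 6.40 CPM where tagged 24 h. F2r ran from 41.2 to 166 CPM in E1 and from 22.2 to 49.5 CPM in E2, with 48 of 53 E1 libraries above the highest E2 library and a ratio of medians of 2.49. F2rl2 ran from 0.197 to 6.72 CPM in E1 and from 0 to 0.596 CPM in E2, with 47 of 53 E1 libraries above the highest E2 library and a ratio of medians of 9.29. Within the 8 groups present in both rounds, the rounds overlapped in 1 group for F2r (Hb 400 µM at 48 h) and in 2 for F2rl2 (Hb 400 and Hp 400 µM at 48 h).

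**Figure D2:**
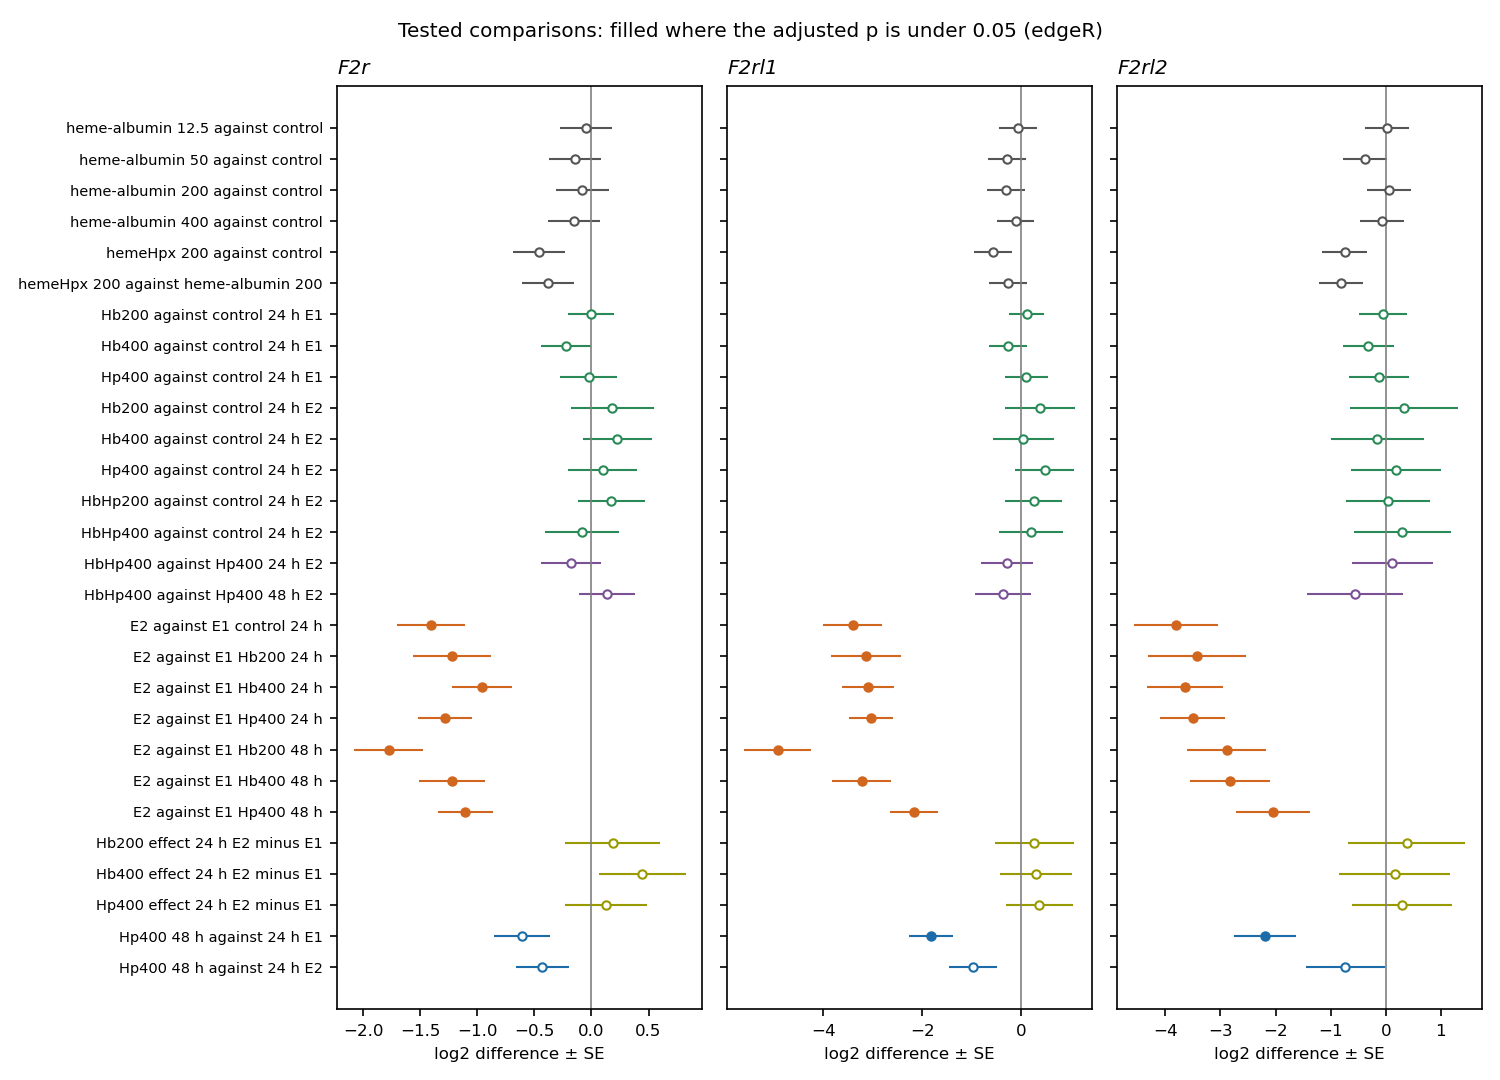
Log2 difference with its SE for F2r, F2rl1 and F2rl2 in the 28 tested comparisons, filled where the edgeR adjusted p is under 0.05. The 7 comparisons of E2 with E1 lie below 0 for all members, and the treatment comparisons at 24 h, all unfilled, lie between -0.81 and 0.48.

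Cell type markers also moved between the rounds. With Hp 400 µM at 24 h, all 5 microglia markers (Tmem119, P2ry12, Cx3cr1, Csf1r, Aif1) were higher in E2, with a summed level of 36.3 to 108 CPM in E1 and 139 to 235 CPM in E2, and no marker was at 0 in all libraries of a round. All 5 oligodendrocyte markers were higher, with sums of 22200 to 26200 CPM in E1 and 24700 to 34000 CPM in E2. Of 5 astrocyte markers, 2 were higher (Aqp4 and Gfap) and 1 lower (Aldh1l1), with overlapping sums of 3940 to 7040 and 5590 to 8230 CPM. Of 5 neuronal markers, 1 was lower (Slc17a7, -2.20 ± 0.81, adjusted p = 0.0256 in edgeR), with overlapping sums of 31.9 to 65.2 and 32.2 to 94.1 CPM. Higher in E2 were also 2 of 4 endothelial, 2 of 4 mural, 2 of 4 border macrophage, 2 of 3 ependymal, 1 of 5 meningeal fibroblast and 1 of 4 thalamus markers. These counts stand beside 19.8% of all genes called higher and 18.3% lower. In 24 h controls, where all members were also lower in E2, 0 of the 5 microglia markers passed in edgeR (median log2 difference 0.61), and their sums overlapped, with 41.7 to 153 CPM in E1 and 103 to 217 CPM in E2. In these controls 4 of 5 oligodendrocyte markers (median 0.43), 3 of 4 endothelial markers (median 1.03), 2 of 3 ependymal markers (median 1.27) and 1 of 5 meningeal fibroblast markers were higher in E2, and 1 of 5 astrocyte markers was lower. Of all genes, 9.03% were called higher and 11.8% lower in these controls. The part of the markers in the receptor differences was not tested.

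The comparison that chose the members rests on both rounds. Fitted with a batch term and no round term over 55 libraries, HbHp 200 µM minus control at 48 h gave log2 differences of -3.83 for F2rl2, -3.73 for F2rl1 and -1.42 for F2r, in a contrast that called 8.61% of 16494 genes lower. F2rl2 and F2rl1 were the lowest of all genes called with a mean of at least 1 CPM, ahead of Car3 (-3.69), Tmc3 (-3.40) and Adamts14 (-3.13), and Slc30a2 (-3.13) and Gm11549 (-3.07) came just after these 5. All 8 HbHp 200 µM libraries of 48 h are from E2, whereas 7 of the 9 controls are from E1.

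Set against the 2 controls of their own round, the HbHp 200 µM libraries had no lower mean of F2r or F2rl1. F2r ran from 23.5 over a median of 32.7 to 38.9 CPM with HbHp and was 23.4 and 27.0 CPM in the E2 controls, a log2 difference of 0.26. F2rl1 ran from 0.316 over 0.584 to 1.01 CPM with HbHp and was 0.282 and 0.437 CPM in the E2 controls, a log2 difference of 0.62. The E1 controls ran from 55.04 to 149 CPM for F2r and from 3.54 to 15.3 CPM for F2rl1, above all of these.

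F2rl2 was lower than the E2 controls. It ran from 0 to 0.449 CPM (0 to 12 counts, median 0.119 CPM) in the 8 HbHp libraries and was 0.493 and 0.595 CPM (21 and 15 counts) in the 2 E2 controls, a log2 difference of -1.93 with no test. In the 2 libraries without a count, 0 of 30164390 and 0 of 26083663 counts allow up to 3 counts, or 0.0995 and 0.115 CPM, counting error only. The only other E2 library at or above 0.493 CPM was one with Hp 400 µM at 24 h (0.539 CPM). The log2 difference of F2rl2 within E2 was -1.97 with Hp 400 µM, -2.52 with HbHp 400 µM, -0.84 with Hb 400 µM and -0.67 with Hb 200 µM. These differences share their controls, and the F2rl2 values of the E2 controls at 24 h (0.219, 0.275 and 0.0374 CPM) were lower than those of the E2 controls at 48 h.

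In E1 at 48 h, Hp 400 µM had the lowest group mean of each member, although its libraries overlapped those with Hb 400 µM. The latter ran from 41.2 to 166 CPM for F2r, from 1.85 to 22.1 CPM for F2rl1 and from 0.320 to 6.36 CPM for F2rl2. With Hp 400 µM, F2r had 69.7, 63.2, 50.7, 42.6 and 61.5 CPM in the 5 libraries. F2rl1 had 4.04, 3.13, 1.87, 1.97 and 3.10 CPM there, and F2rl2 had 1.31, 0.398, 0.197, 0.365 and 0.882 CPM. The log2 differences from the E1 controls of 48 h were -1.06 for F2r, -2.003 for F2rl1 and -2.46 for F2rl2, given as a description because these controls entered the choice of members. For Hb 200 µM they were -0.15, -0.03 and -0.32, and for Hb 400 µM -0.32, -0.37 and -0.57. All 5 Hp libraries are from batch 3, whereas 6 of the 7 E1 controls of 48 h are from batch 2, and the control of batch 3 had 74.5 CPM of F2r, 4.87 CPM of F2rl1 and 1.33 CPM of F2rl2, above all 5 Hp libraries for each gene.

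A test that does not use these controls sets 48 h against 24 h with Hp 400 µM, all in batch 3. In E1, F2rl1 was lower at 48 h by -1.83 ± 0.45 on the log2 scale (3.56-fold, adjusted p = 0.00221 in edgeR) and F2rl2 by -2.19 ± 0.56 (4.57-fold, adjusted p = 0.00356), beside 10.2% of all genes called lower. With the library-name code as a replicate block, a code not taken to pair the libraries, neither passed (F2rl1 -1.77, adjusted p = 0.0637 in edgeR, and F2rl2 -2.11, adjusted p = 0.083). Among these libraries nearly all codes differed between 24 h and 48 h in E1, whereas in E2 both times carried the same codes. Time and code can therefore hardly be told apart in E1. F2r differed by -0.61 ± 0.24 (adjusted p = 0.0595 in edgeR), and DESeq2 called it (adjusted p = 0.045). The F2rl1 values of the 5 libraries at 48 h all lay below the 6 at 24 h, whereas those of F2r and F2rl2 overlapped. Of the 5 microglia markers 4 were higher at 48 h in E1 (median log2 difference 1.27), as were 3 of 5 astrocyte markers (median 0.54), 2 of 4 thalamus markers (median 0.67) and 1 of 3 ependymal markers. Lower at 48 h were 1 of 5 oligodendrocyte, 1 of 5 neuronal, 1 of 4 border macrophage and 1 of 5 striatum markers, and of 4 mural markers 1 was higher and 1 lower. These counts stand beside 10.2% of all genes called lower and a slightly larger share called higher. The part of the markers in the receptor differences was not tested. In E2 none of the members passed in edgeR, with -0.43 ± 0.23 for F2r, -0.97 ± 0.49 for F2rl1 and -0.74 ± 0.71 for F2rl2 (adjusted p from 0.342 to 0.662), beside 0.0592% of all genes called lower. Whether the change with time differed between the rounds was not tested, and when both rounds were given 1 common time effect all members passed.

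F2r, F2rl1 and F2rl2 rose and fell together from library to library within E1 and batch 1. As a description over libraries that share treatments, rounds and scaling, the Pearson correlation of log2 CPM between F2r and F2rl1 was 0.927 in E1 (Spearman 0.921, n = 53) and 0.946 in batch 1 (Spearman 0.916, n = 60). F2rl1 and F2rl2 had 0.933 in E1 and 0.897 in batch 1, and F2r and F2rl2 0.865 and 0.917. In E2 (n = 54) F2r and F2rl1 had 0.563, whereas F2rl2 had 0.036 with F2r and 0.0398 with F2rl1. F2rl2 had 0 to 21 counts per E2 library, against 6 to 319 in E1.

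**Figure D3:**
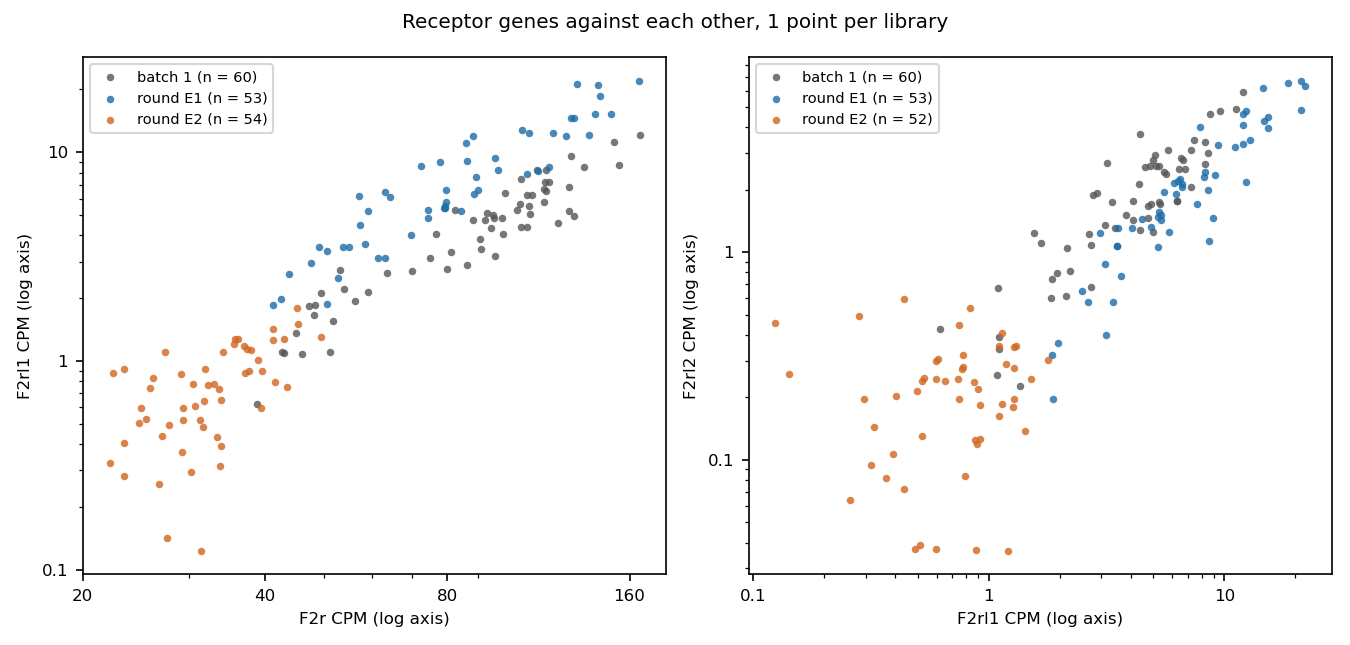
F2rl1 against F2r (left) and F2rl2 against F2rl1 (right), as CPM on log axes, with 1 point per assigned library coloured by batch 1, round E1 or round E2. Libraries of 0 counts are left out on the right. The E1 and batch 1 points run along a diagonal, and the E2 points form a separate cloud at the low end.

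The genes most like each receptor gene were ranked by Pearson correlation over all assigned E1 and E2 libraries together, among 16896 genes. Among the 5 most like F2r were Mtmr11, Trim9, Zeb1 and Gpd2, with correlations within E1 of 0.925 to 0.983 and within E2 of 0.76 to 0.882. Trim9, a ubiquitin ligase gene, had the closest match of these 4 within E1 (0.983) and in batch 1 (0.968). For F2rl1 they were F2r itself, Mest, Trim9, Zeb1 and Mrps6, with 0.86 to 0.927 in E1 and 0.446 to 0.647 in E2. For F2rl2 they were Akap12, Mest, Dact1, Fbn2 and Hectd2, with 0.83 to 0.922 in E1 and 0.186 to 0.316 in E2. Trim9, the transcription factor gene Zeb1 and the imprinted gene Mest each stood among the 5 of more than 1 member.

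**Figure D4:**
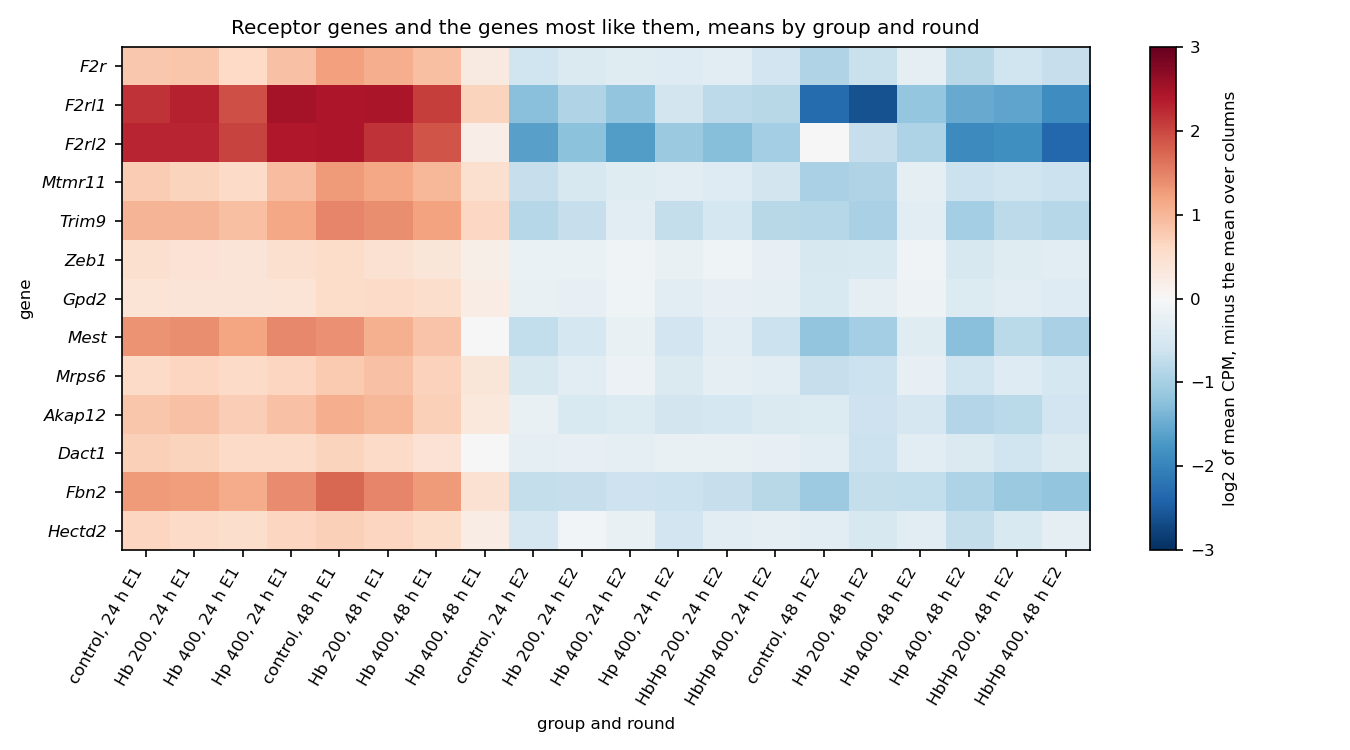
Group means of the receptor genes and of genes most like them in rounds E1 and E2, as log2 of mean CPM minus the mean over the columns of each row (colour scale from -3 to 3). The columns of E1 are red for nearly all genes and those of E2 blue or pale, with the E1 column of Hp 400 µM at 48 h pale, and the swing is widest for F2rl1 and F2rl2.

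The other members of the pathway moved between the rounds in both directions. With Hp 400 µM at 24 h, 19.8% of all genes were called higher in E2 and 18.3% lower, and the counts of the lists stand beside these shares. The protease list holds 22 genes, of proteases that can cut these receptors and of the cofactor tissue factor (F3). Of these 10 passed the filter on low counts, of which 5 were higher in E2, 0 lower and 5 not called (median log2 difference 0.63, beside 0.01 for all genes). Ctss, the lysosomal protease cathepsin S, differed by 1.29 ± 0.28 (adjusted p = 0.000119 in edgeR), Plau, the urokinase gene, by 0.94 ± 0.22 (adjusted p = 0.000382) and Mmp13 by 1.40 ± 0.33 (adjusted p = 0.000402). Thrombin's own gene F2 and the trypsin genes did not pass the filter.

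Of 16 inhibitors and cofactors, 15 were tested, 5 were higher, 1 lower and 9 not called (median 0.34). Tfpi, which blocks tissue factor, differed by 1.10 ± 0.25, Serping1, the C1 inhibitor gene, by 0.95 ± 0.17, and Serpina3n by 0.32 ± 0.11. Of 19 transducers, 4 were higher, 4 lower and 11 not called (median 0.01), with Rock2, a protein kinase gene, at -0.36 ± 0.05, Rhoa at 0.25 ± 0.05 and the G protein gene Gna12 at 0.33 ± 0.06. Of 7 genes of receptor desensitization, 3 were higher and 2 lower, with Arrb2, a beta-arrestin, at 0.95 ± 0.20, Snx1, a sorting nexin, at 0.34 ± 0.09 and Bicd1 at -0.35 ± 0.10. Of 9 genes known to be induced by thrombin, 0 were higher, 5 lower and 4 not called (median -0.44), with Egr1 at -0.80 ± 0.17, Ptgs2 at -0.76 ± 0.23 and Ccl2 at -0.45 ± 0.17. In 24 h controls this list went the other way, with 3 higher in E2, 1 lower and 5 not called (median 0.33), and the protease list had 2 higher, 0 lower and 8 not called (median 0.25), beside 9.03% of all genes called higher and 11.8% lower.

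Between HbHp 400 and Hp 400 µM at 48 h in E2, where no receptor gene passed, 6 of 60 pathway genes tested passed (10%), beside 3.01% of all genes. All 6 were higher, where 1.88% of all genes were called higher and 1.13% lower. The lists were chosen with earlier results of these data known, so these shares are a description and no test of the pathway. Of the 10 genes of the protease list and the 19 transducers tested, 0 passed in edgeR, with medians of -0.06 and 0.02. The lowest p among them belonged to Klk8 (-0.52 ± 0.17, adjusted p = 0.0619) and Gna12 (-0.21 ± 0.07, adjusted p = 0.0503). Procr, the endothelial protein C receptor gene, was higher by 0.95 ± 0.16 (adjusted p = 1.09e-05 in edgeR), as the only one of 15 inhibitors and cofactors called, and Grk5, a receptor kinase gene, was higher by 0.30 ± 0.08 as the only one of 7 desensitization genes. Of 9 thrombin-inducible genes, 4 were higher, 0 lower and 5 not called (median 0.35), with Ptgs2 at 1.36 ± 0.24, Il6 at 1.30 ± 0.34 and Ccn1 at 0.35 ± 0.10. Of the 5 microglia markers, P2ry12 was lower there (-1.05 ± 0.19, list median -0.64), and of 4 border macrophage markers Cbr2 was lower (-1.41 ± 0.38). Of 3 platelet markers 2 were tested, of which Ppbp was higher (2.71 ± 0.54) and Itga2b was not called (-0.17 ± 0.22). The other markers of these lists were not called. Their part in these differences was not tested.

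F2rl3 was called between the rounds in 0 of 7 comparisons, and Iqgap2 in 2. F2rl3 had medians of 0.308 CPM in E1 and 0.412 CPM in E2, and with Hp 400 µM at 24 h it differed between the rounds by 1.10 ± 0.46 (adjusted p = 0.0505 in edgeR), in the direction opposite to the members, and at 48 h by -0.23 ± 0.44. It was higher with hemeHpx than in control in batch 1 by 1.17 ± 0.35 (adjusted p = 0.0401) and higher at 48 h than at 24 h with Hp 400 µM in E1 by 1.28 ± 0.47 (adjusted p = 0.0409). Both calls rested on few reads, the latter on 0 to 10 counts a library at 24 h and 10 to 23 at 48 h. Iqgap2, within which F2rl2 lies, had medians of 23.7 CPM in E1 and 20.0 CPM in E2 and differed between the rounds with Hp 400 µM by -0.07 ± 0.11 at 24 h (adjusted p = 0.644) and by 0.36 ± 0.12 at 48 h (adjusted p = 0.0206), the latter opposite to F2rl2. In 24 h controls Iqgap2 was lower in E2 by -0.38 ± 0.14 (adjusted p = 0.0366 in edgeR), in the direction of F2rl2, and with Hb 400 µM at 48 h it differed by -0.31 ± 0.14 (adjusted p = 0.176). With heme-albumin 400 µM Iqgap2 was lower by -0.72 ± 0.12 (adjusted p = 3.63e-06 in edgeR), where F2rl2 differed by -0.07 ± 0.40. With heme-albumin 200 µM it was lower by -0.49 ± 0.12 (adjusted p = 0.00346), where F2rl2 differed by 0.06 ± 0.40. With hemeHpx it was lower by -0.50 ± 0.12 (adjusted p = 0.0208), and F2rl2 differed by -0.75 ± 0.41. Between HbHp and Hp 400 µM at 48 h in E2 it was lower by -0.60 ± 0.12 (adjusted p = 0.000611), and F2rl2 differed by -0.55 ± 0.87. The part of shared reads was not tested.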

How the data were processed

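RNA was made into TruSeq mRNA libraries. The deposited files hold unnormalized counts made by the authors, 1 whole number per Ensembl gene and library, and the submitters' processing notes name featureCounts and GRCm39. The paper's methods name DESeq2, and the aligner is not given in the sources used here. Samples were grouped by treatment tag, time, batch tag and round. Counts were fitted with edgeR 4.0.16 in R 4.3.3 (TMM scaling, filterByExpr with smallest count 10 and smallest total 15, quasi-likelihood F test, Benjamini-Hochberg adjustment over all genes at 0.05), with 1 fit for the 60 libraries of batch 1 (15554 genes) and 1 for the assigned libraries of batches 2 and 3 (16896 genes) with a term per group and round and a batch term. Standard errors are the log2 difference divided by the square root of F, and intervals are 1.96 SE on either side. Log2 CPM for correlations used a prior count of 2. The fit was tested on simulated counts.

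The named genes are the members, F2rl3, neighbouring genes, the 5 genes most like each member (1 of which is not reported here), and the genes of lowest p in each list for Hp 400 µM between rounds and HbHp against Hp at 48 h. Marker genes named beyond that, and the list members F2 and the trypsins, were named after their values were seen. The members and lists were chosen with earlier results of these data known. Alternatives were DESeq2 1.42.0, RLE scaling, other filters, a term for the sex letter of the library name, no batch term, batch 3 alone, additive group and round terms, 30 libraries only, the library-name code as a replicate block, and leaving out each library of groups of 2 to 5. In refits without a library the dispersion trend of the full fit was kept, and a lone library was assumed to vary like the others. Of 541 pairs of libraries of 1 group and round (batch 1 taken as 1 round), none were alike within sampling noise (lowest chi-square per degree of freedom 3.48). Same-code libraries of different groups did not deviate together throughout. The median correlation of deviations was 0.19 in batch 1, 0.099 in E1 and 0.038 in E2, beside -0.01, -0.028 and -0.0055 for different codes. Of the same-code pairs, 55.6%, 49.5% and 39.1% lay above 0.1. The codes were therefore not taken to pair the samples, although the same-code median was the higher in each round.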

Additional observations from a re-analysis of the deposited data

Results flagged for a closer look

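Of 63 sets of 4 to 10 libraries tested for a value far from the rest (log2 of CPM plus 0.01), 5 held one, where chance flags about 1 in 20. Replicate 8 of heme-albumin 12.5 µM was far below the other 9 libraries of its group for all members, with 42.7 CPM of F2r (next lowest 76.7), 1.11 CPM of F2rl1 (next lowest 4.08) and 0.342 CPM of F2rl2 (next lowest 1.44). Replicate 2 of HbHp 400 µM at 24 h was far above the other 3 for F2rl2, with 0.354 CPM from 9 counts (next highest 0.247). Replicate 1 of HbHp 400 µM at 48 h was far above the other 4 for F2rl2, with 0.321 CPM from 7 counts (next highest 0.0726).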

How the results depend on the processing

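No direction reversed among the calls. Over 84 member tests, 579 refits with another setting kept their side of the threshold, 6 gained a call and 7 lost one, and without 1 library 210 kept it and 12 lost a call. In 54 refits the sign differed with neither value past the threshold. The E2 against E1 comparison kept 13 calls with batch 3 alone, where 12 of 18 tests set 1 library against 1, and 7 of 7 with at least 10 counts in every library, a filter that removes F2rl1 and F2rl2, and had 18 to 21 calls when leaving out 1 library. For Hp 400 µM at 48 h, leaving out 1 library gave E2 minus E1 differences of -1.20 to -1.03 for F2r, -2.29 to -2.01 for F2rl1 and -2.28 to -1.63 for F2rl2, and HbHp against Hp differences of 0.09 to 0.19, -0.57 to -0.19 and -1.40 to -0.34. The 48 h against 24 h comparison, with 2 calls, had 0 with at least 10 counts in every library, a filter that removes F2rl1 and F2rl2. It had 2 without any 1 library. With additive round terms it had 6, but there both rounds share 1 time effect, so each member is counted in both rounds. With the replicate block it had 0 calls (F2rl1 -1.77, adjusted p = 0.0637 in edgeR, and F2rl2 -2.11, adjusted p = 0.083), and the replicate block changed no other call. The cause was not tested. Depth limits F2rl2 most, with 0 to 21 counts per E2 library.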

Other observations

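Libraries with conflicting labels were assigned to no group, and their receptor levels are given as values only. Of the 7 E1 libraries whose treatment tag reads 48 h with hemoglobin and hemopexin at 400 µM, F2rl1 ran from 0 over a median of 0.425 to 1.99 CPM, F2r from 26.1 over 31.8 to 74.1 CPM, and F2rl2 from 0 over 0.366 to 0.716 CPM. The 7 E1 libraries tagged with the same agents for 24 h ran from 0.841 over 3.98 to 6.40 CPM for F2rl1, from 30.7 over 71.7 to 85.1 CPM for F2r and from 0.269 over 0.888 to 2.37 CPM for F2rl2. In E2, F2rl1 ran from 0.236 to 0.745 CPM in the 3 libraries tagged 24 h and from 0.0379 to 0.685 CPM in the 3 tagged 48 h. The remaining library, whose label conflicts on time, had 1.22 CPM of F2rl1, 28.4 CPM of F2r and 0.274 CPM of F2rl2.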
